A study of Homo sapiens with 6 samples.

Results

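The 36 genes described here are those of glucose uptake and glycolysis (21 genes), the hypoxia-inducible factors with their partner and their main ubiquitin ligase subunit (4 genes), and other targets of these factors (11 genes). They were picked by name from a table of 60675 genes, and all 36 were among the 16503 genes with enough counts to be tested. RNA was sequenced from HCT116, a human colon carcinoma line, in 3 groups of 2 libraries. The first group, SP2509, received 3 uM of that compound, an inhibitor of the histone demethylase LSD1, for 48 h. The second, siPIR, had the gene of the iron-binding nuclear protein Pirin silenced with small interfering RNA, as the label abbreviates it, with no time given for the knockdown itself; the treatment protocol, which all libraries share, gives 48 h for DMSO or SP2509. The third was left untreated. All groups carry the parental genotype apart from the knockdown, and all come from the same line. The treatment label of the siPIR libraries also names SP2509, but the titles give the knockdown alone, so whether the cells also met the compound cannot be told from the labels. No library is labelled as given a non-targeting siRNA, and the untreated libraries are labelled so although the treatment protocol mentions DMSO, the solvent. The labels tie no replicate to a culture of its own, so p-values measure the spread between these libraries, which may be technical. PIR had 37 and 39 counts in siPIR libraries, against 519 and 462 counts in untreated libraries (log2 fold change -2.87, SE 0.175, edgeR adjusted p = 3.39e-09). By that fit PIR in siPIR cells stood at 13.7% of the untreated level. A further fit, described below, removes the trend with transcript GC content and length. There PIR stood higher, at 24.9% of the untreated level (edgeR adjusted p = 1.01e-09).

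Glycolysis turns glucose into pyruvate in the cytosol, and lactate dehydrogenase then regenerates the NAD that the pathway consumes. With enough oxygen, HIF1A and EPAS1 (HIF-2 alpha) are hydroxylated and sent to degradation by a ligase built around VHL. Without oxygen, or without the iron that the hydroxylases need, they pair with ARNT and bind a short DNA element near genes of glycolysis, pH control, mitophagy and blood vessel growth. Colorectal tumours are known for high glycolytic flux even in air. HIF1A activity is set mainly at the protein level, which RNA libraries do not measure.

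The core of the HIF element is ACGTG or GCGTG on either strand, and 6 promoter windows are shown so that these letters can be set beside the expression values that follow. They belong to BNIP3, ADM and ANKRD37, which rose strongly in siPIR cells, and to ANGPTL4, CA9 and CA12, which had large changes in SP2509 cells; these 6 were chosen after their values were seen. Each runs from 250 bases before to 50 bases after the RefSeq start, 5′ to 3′ on the strand of the gene, build GRCh38.p14. The windows lie at chr10:131981874-131982173 (BNIP3, minus strand), chr11:10304823-10305122 (ADM, plus strand), chr4:185396591-185396890 (ANKRD37, plus strand), chr19:8363905-8364204 (ANGPTL4, plus strand), chr9:35673678-35673977 (CA9, plus strand) and chr15:63381797-63382096 (CA12, minus strand). Capitals mark each match to the motif.
BNIP3: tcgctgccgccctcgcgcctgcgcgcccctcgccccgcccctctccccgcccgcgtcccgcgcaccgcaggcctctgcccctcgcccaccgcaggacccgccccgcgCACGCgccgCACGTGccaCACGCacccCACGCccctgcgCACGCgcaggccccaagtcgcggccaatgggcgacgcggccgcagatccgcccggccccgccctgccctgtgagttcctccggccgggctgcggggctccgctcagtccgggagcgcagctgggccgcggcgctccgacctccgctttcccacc
ADM: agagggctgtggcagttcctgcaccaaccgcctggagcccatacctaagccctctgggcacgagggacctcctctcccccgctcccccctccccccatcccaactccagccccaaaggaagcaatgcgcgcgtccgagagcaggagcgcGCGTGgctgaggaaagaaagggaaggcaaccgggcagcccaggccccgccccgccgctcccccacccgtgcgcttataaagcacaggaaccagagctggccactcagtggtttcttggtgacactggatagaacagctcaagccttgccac
ANKRD37: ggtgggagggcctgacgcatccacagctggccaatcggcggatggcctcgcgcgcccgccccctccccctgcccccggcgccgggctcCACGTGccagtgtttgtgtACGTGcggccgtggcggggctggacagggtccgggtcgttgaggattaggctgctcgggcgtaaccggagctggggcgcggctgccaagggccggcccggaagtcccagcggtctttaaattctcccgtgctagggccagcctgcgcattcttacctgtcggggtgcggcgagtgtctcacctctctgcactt
ANGPTL4: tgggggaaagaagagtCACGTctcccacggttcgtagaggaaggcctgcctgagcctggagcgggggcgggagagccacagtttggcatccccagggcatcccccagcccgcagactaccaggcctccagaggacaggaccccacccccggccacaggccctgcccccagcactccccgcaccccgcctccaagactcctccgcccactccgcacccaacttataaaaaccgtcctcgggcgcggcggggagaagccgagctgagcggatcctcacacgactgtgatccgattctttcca
CA9: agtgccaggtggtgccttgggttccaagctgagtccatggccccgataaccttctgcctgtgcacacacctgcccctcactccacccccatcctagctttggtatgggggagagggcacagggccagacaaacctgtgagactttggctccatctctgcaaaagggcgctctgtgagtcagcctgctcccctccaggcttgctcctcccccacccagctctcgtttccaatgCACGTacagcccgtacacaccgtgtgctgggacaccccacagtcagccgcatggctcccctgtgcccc
CA12: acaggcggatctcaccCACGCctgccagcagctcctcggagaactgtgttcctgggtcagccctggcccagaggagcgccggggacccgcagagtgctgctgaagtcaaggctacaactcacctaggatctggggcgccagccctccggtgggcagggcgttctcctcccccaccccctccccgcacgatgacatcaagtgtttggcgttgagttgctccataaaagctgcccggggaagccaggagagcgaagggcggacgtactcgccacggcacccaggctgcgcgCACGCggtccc

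Of these windows, that of BNIP3 held 4 matches to GCGTG and the palindrome CACGTG, which counts as an ACGTG match on each strand. ANKRD37 held that palindrome and a further ACGTG, ADM 1 GCGTG, ANGPTL4 and CA9 1 ACGTG each, and CA12 2 GCGTG. Of the 36 genes, 31 had entries in the promoter table (all but SLC2A3, VHL, BNIP3L, VEGFA and NDRG1), with 54 windows in total. ACGTG was present in 22 of these windows (40.7%), against 21.4% of all 35116 windows. GCGTG was present in 23 (42.6%), against 36.5%. Such matches describe letters, and binding was not measured. A gene with several windows counts more than once, the genes were picked for their roles, and the windows were not matched for GC content.

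The glycolytic genes were among the abundant transcripts of these cells. Levels are counts relative to library size after scaling (CPM), and levels of different genes are compared only per kb of the longest transcript. In untreated cells GAPDH stood first at 1452 CPM per kb, followed by ENO1 at 894, PKM, the pyruvate kinase gene, at 772, LDHB at 616 and LDHA at 462. The hypoxia targets covered a wide range, with NDRG1 at 67.8, BNIP3L at 30.3 and BNIP3 at 21.2 CPM per kb. CA9, the tumour-associated carbonic anhydrase, stood lowest at 0.984 CPM per kb. The 21 glycolytic genes together took 1.14% of all counts in each SP2509 library, 0.721% and 0.944% in siPIR libraries, and 1.75% and 1.70% in untreated libraries. These are shares of unscaled counts, and the SP2509 and siPIR libraries all lay below the untreated ones. They carry no correction for GC content, which fold changes of siPIR libraries followed. With that trend and length removed, 13 of the 21 genes were higher in siPIR than in untreated cells and 4 lower (32.8% and 32.2% of all genes).

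**Figure D1:**
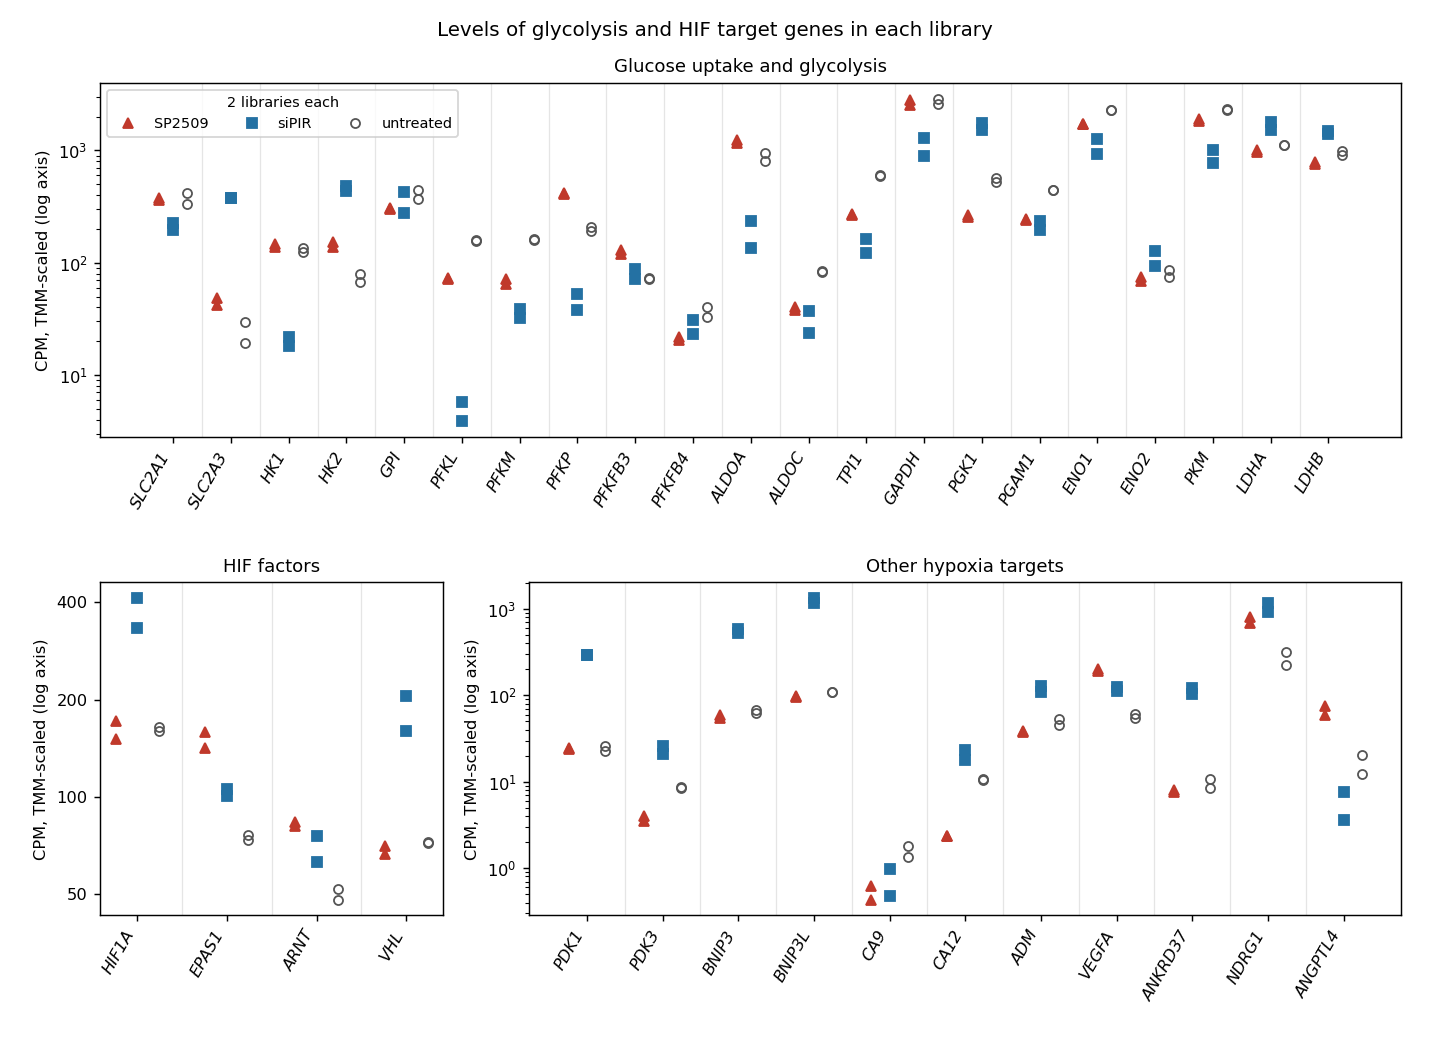
Level of each of the 36 genes in CPM after TMM scaling (vertical log axes) in each library, with triangles for SP2509, squares for siPIR and open circles for untreated cells, 2 libraries each. PFKP and VEGFA sit highest in SP2509 cells, and SLC2A3, HK2, PDK1, BNIP3, BNIP3L and ANKRD37 sit highest in siPIR cells.

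Library totals ran from 22622441 to 28816590 counts. The 2 ribosomal RNAs of mitochondria made up 6.33% and 6.93% of each SP2509 total, 1.14% and 1.36% of each siPIR total and 1.63% and 1.6% of each untreated total; their part in the results was not tested. The average transcript GC content, with genes weighted by their counts, was 42.3% and 42.8% for siPIR and 48.3% to 48.7% for the other 4 libraries. The sum of 5 epithelial markers was 4458 to 4500 unscaled CPM in SP2509, 1048 to 1125 in siPIR and 4511 to 4551 in untreated libraries. Among them EPCAM had more counts in siPIR libraries than in any other, and the keratin genes KRT8, KRT18 and KRT19 had fewer, and the part of these changes in the results was not tested. Leukocyte markers summed to at most 1.15 CPM in any library, and the leukocyte gene PTPRC had 0 counts in all 6. Endothelial markers reached at most 1.98 CPM, and fibroblast markers summed to 19.8 to 21.5 CPM in SP2509, 1.41 to 1.81 in siPIR and 28.5 to 32.6 in untreated libraries, mostly COL1A1, with COL1A2 at 0 in every library. In bulk libraries, a lower level in every cell and expression in fewer cells cannot be told apart. Counts of 32 of the 36 genes were not whole in at least 1 library, so reads shared with other features may have been divided. Named pseudogenes exist for 13 members, including GAPDH with 62 and BNIP3 with 39, but together they held at most 0.657% of the counts of a member and its copies in any library. The untreated libraries were not alike for this gene set: 28 of 36 genes were higher in replicate 1, against 53.2% of all tested genes. The gap was widest for ANGPTL4 (20.6 and 12.1 CPM), SLC2A3 (29.6 and 19.4 CPM) and NDRG1 (315 and 225 CPM).

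The comparison of SP2509 with untreated cells asks how the compound changed glucose metabolism and hypoxia genes. Gene coordinates are those of GRCh38 in GENCODE 29. The genes moved in both directions, as did all genes tested. VEGFA, NDRG1 and ANGPTL4 rose 2.76-fold to 4.09-fold, HK2 and PFKP rose 2-fold and 2.07-fold, and carbonic anhydrase genes and several middle steps of glycolysis fell to 22.2% to 57.9% of the untreated level. Transcripts of the HIF-2 alpha subunit gene EPAS1 and of ARNT rose, and HIF1A did not pass the test. In all, 10 of 36 genes were higher and 15 lower; among all 16503 genes tested 33.5% were higher and 35.1% lower, 68.6% in either direction. For the 36 genes the median log2 fold change was -0.18, and for all genes -0.04.

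At the entry of the pathway, SLC2A1, the gene of the basal glucose transporter GLUT1, had 373 and 358 CPM in SP2509 cells, against 418 and 332 CPM in untreated cells. The groups overlapped, and the log2 fold change was -0.04 (SE 0.12, edgeR adjusted p = 0.788). SLC2A3 (chr12:7919230-7936275, minus strand), which encodes the high-affinity transporter GLUT3, had 48.4 and 41.6 CPM in SP2509 cells, against 29.6 and 19.4 CPM in untreated cells (log2 fold change 0.87, SE 0.161, edgeR adjusted p = 0.000359). Without siPIR replicate 1 or 2, which are in neither group compared but share the estimate of the spread, SLC2A3 no longer passed (edgeR adjusted p = 0.0542 and 0.0533). HK2 (chr2:74833981-74893359, plus strand), the inducible hexokinase, had 139 and 153 CPM in SP2509 cells, against 78.8 and 67.1 CPM in untreated cells (log2 fold change 1.0, SE 0.112, edgeR adjusted p = 5.52e-06). HK1, the housekeeping form, had 138 and 146 CPM, against 135 and 125 CPM in untreated cells, and did not pass (log2 fold change 0.13, edgeR adjusted p = 0.302). Phosphofructokinase commits sugar to glycolysis, and its 3 genes did not move alike. PFKP (chr10:3066333-3137712, plus strand), the platelet form, had 405 and 416 CPM in SP2509 cells, against 207 and 190 CPM in untreated cells (log2 fold change 1.05, SE 0.13, edgeR adjusted p = 1.31e-05). PFKM (chr12:48105139-48146404, plus strand), the muscle form, had 71.8 and 65.3 CPM in SP2509 cells, against 161 and 159 CPM in untreated cells (-1.22, SE 0.108, edgeR adjusted p = 6.77e-07). PFKL, the liver form, had 71.4 and 73.4 CPM in SP2509 cells, against 159 and 156 CPM in untreated cells (-1.12, SE 0.113, edgeR adjusted p = 2.26e-06). The groups were apart in all 3 genes. The kinase and phosphatase genes that set the level of the activator fructose 2,6-bisphosphate also parted: PFKFB3 rose by 0.78 and PFKFB4 changed by -0.79 on the log2 scale (edgeR adjusted p = 4.78e-05 and 0.000306).

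Among the later enzymes, 4 fell to between 44.6% and 54.5% of the untreated level. TPI1, the triosephosphate isomerase gene, had 270 and 264 CPM in SP2509 cells, against 588 and 609 CPM in untreated cells (log2 fold change -1.16, SE 0.124, edgeR adjusted p = 3.47e-06). The brain-type aldolase gene ALDOC changed by -1.09, the phosphoglycerate kinase gene PGK1 by -1.06 and the phosphoglycerate mutase gene PGAM1 by -0.88 (edgeR adjusted p = 3.44e-05, 1.76e-06 and 9.42e-06). Smaller changes were called for ALDOA (0.45), GPI (-0.43), ENO1 (-0.40), PKM (-0.32) and LDHB (-0.30), with edgeR adjusted p between 0.0162 and 0.0484. These 5 calls were close to the threshold: without SP2509 replicate 1 or 2, or untreated replicate 1, none of them passed (edgeR adjusted p = 0.0583 to 0.291), and without untreated replicate 2 only GPI did. Their values kept their direction when any library was left out, at 0.34 to 0.58 for ALDOA, -0.57 to -0.27 for GPI (nearest 0 without untreated replicate 1), -0.41 to -0.39 for ENO1, -0.34 to -0.27 for PKM and -0.35 to -0.24 for LDHB. ALDOA was also not called with upper-quartile scaling (0.22, edgeR adjusted p = 0.32), total counts alone (0.064, 0.789) or a filter of 1 CPM in 2 libraries (0.43, 0.0602). GAPDH, often taken as a reference gene, had 2558 and 2836 CPM in SP2509 cells, against 2850 and 2595 CPM in untreated cells, with overlapping groups (-0.01, edgeR adjusted p = 0.939). ENO2 and LDHA did not pass either (-0.17 and -0.18, edgeR adjusted p = 0.29 and 0.149). Altogether 5 of the 21 glycolytic genes were higher, 11 lower and 5 not called.

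EPAS1 (chr2:46293667-46386703, plus strand) had 141 and 159 CPM in SP2509 cells, against 73.4 and 76.2 CPM in untreated cells (log2 fold change 1.01, SE 0.0997, edgeR adjusted p = 1.9e-06). ARNT, the common partner of both alpha subunits, had 81.2 and 83.6 CPM in SP2509 cells, against 51.8 and 48.0 CPM in untreated cells (0.72, SE 0.108, edgeR adjusted p = 6.46e-05). Both SP2509 libraries lay above both untreated ones in these 2 genes. HIF1A had 171 and 152 CPM in SP2509 cells, against 160 and 165 CPM in untreated cells (-0.01, SE 0.117, edgeR adjusted p = 0.947). VHL was at -0.07 (edgeR adjusted p = 0.601).

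VEGFA (chr6:43770184-43786487, plus strand), the main angiogenic growth factor gene, had 191 and 202 CPM in SP2509 cells, against 54.6 and 60.5 CPM in untreated cells (log2 fold change 1.77, SE 0.104, edgeR adjusted p = 2.52e-08). ANGPTL4, which encodes a secreted inhibitor of lipoprotein lipase, had 59.0 and 75.4 CPM in SP2509 cells, against 20.6 and 12.1 CPM in untreated cells (2.03, SE 0.248, edgeR adjusted p = 1.97e-05). NDRG1, a stress and differentiation gene, had 685 and 806 CPM in SP2509 cells, against 315 and 225 CPM in untreated cells (1.47, SE 0.162, edgeR adjusted p = 4.92e-06). These 3 were the only hypoxia targets of the set that rose, and their groups did not overlap. CA12, a membrane carbonic anhydrase, had 2.36 and 2.33 CPM in SP2509 cells, against 10.8 and 10.4 CPM in untreated cells (-2.17, SE 0.173, edgeR adjusted p = 2.95e-07). CA9 rested on few reads, 16 and 11 counts in SP2509 libraries, against 66 and 43 counts in untreated libraries (-1.6, SE 0.352, edgeR adjusted p = 0.00139). PDK3, an inhibitor kinase of pyruvate dehydrogenase, changed by -1.19 and the vasodilator peptide gene ADM by -0.37 (edgeR adjusted p = 2.29e-05 and 0.013). The ADM call was lost without SP2509 replicate 1 (-0.38, edgeR adjusted p = 0.0714), SP2509 replicate 2 (-0.32, 0.113) and untreated replicate 1 (-0.23, 0.22). PDK1, BNIP3, BNIP3L and ANKRD37 did not pass, at -0.01, -0.20, -0.18 and -0.30 (edgeR adjusted p = 0.94, 0.104, 0.154 and 0.0875). Without siPIR replicate 1 or 2 the last 3 and LDHA passed as lower (edgeR adjusted p = 0.0158 to 0.036), and ANKRD37 also without untreated replicate 2 (0.0452).

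The direction of small changes depended on scaling. TMM centred all genes at a median of -0.04 on the log2 scale, the upper quartile at -0.27 and library totals at -0.43. In the same order, 10, 9 and 9 of the 36 genes were higher and 15, 21 and 26 lower, so that 40%, 30% and 25.7% of the called members were higher (48.8%, 36.2% and 28.3% of all called genes). With total counts alone HIF1A and GAPDH were called lower, each at -0.40 (edgeR adjusted p = 0.00398 and 0.0265), beside the shift of -0.43 of all genes. In the fit that removes the GC and length trend, 11 of the 36 were higher and 15 lower (38.5% and 34.6% of all genes). There HK1 was called higher (0.22, edgeR adjusted p = 0.0112), and BNIP3L and ANKRD37 lower (-0.18 and -0.36, 0.0408 and 0.0331). GPI and ADM did not pass in that fit (-0.34 and -0.19, edgeR adjusted p = 0.08 and 0.0505).

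Other genes of the same pathways moved in both directions too, as did all genes tested (33.5% higher and 35.1% lower). Of 26 tested further genes of glycolysis and pyruvate use, 5 rose and 12 fell, among them HKDC1, a hexokinase-like gene (2.11), MPC1, a subunit of the mitochondrial pyruvate carrier (1.26), the transporter gene SLC2A6 (-2.64) and PDK2 (-1.26). Of 14 regulators of HIF, 6 rose and 7 fell. SIAH2, a ubiquitin ligase gene, rose by 2.08 and the coactivator gene CREBBP by 1.19, while the prolyl hydroxylase gene EGLN3, itself a HIF target, changed by -1.95 and the asparaginyl hydroxylase gene HIF1AN by -0.98. Of 33 further hypoxia targets, 15 rose and 12 fell, with SLC7A11 (2.55) and STC2 (2.42) above and PLOD2 (-1.56), GYS1 (-1.45) and FAM162A (-0.89) below. Named values passed with edgeR adjusted p of 6.34e-06 or lower.

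**Figure D2:**
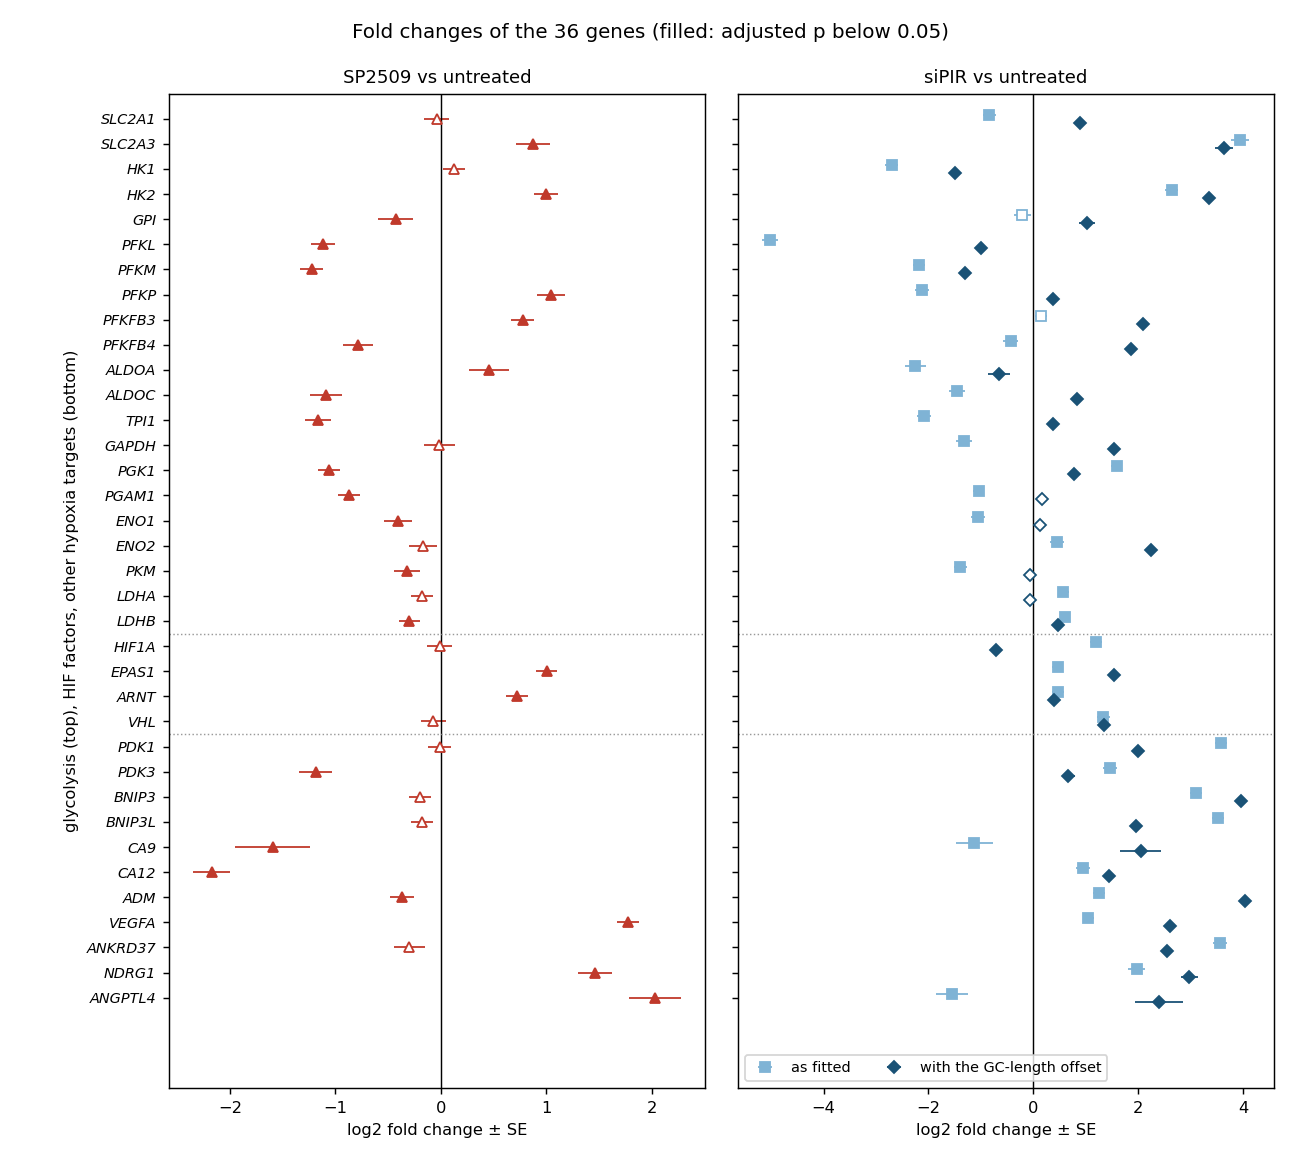
Log2 fold change with its SE (horizontal axes) of each gene in SP2509 against untreated cells (left) and siPIR against untreated cells (right), where light squares are the values as fitted and dark diamonds those with the GC-length offset. Filled symbols passed the edgeR test. With the offset all 11 hypoxia targets lie right of 0 in siPIR cells. In SP2509 cells 3 rose and 4 fell as fitted (3 and 5 with the offset, not drawn).

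Silencing of Pirin was compared with no treatment to ask how these genes respond to its loss. As fitted, SLC2A3, HK2 and most hypoxia targets stood several-fold higher, with PDK1, BNIP3, BNIP3L and ANKRD37 at 8.58-fold to 11.9-fold the untreated level. PDK1 stood at 4.01-fold, BNIP3 at 15.6-fold, BNIP3L at 3.87-fold and ANKRD37 at 5.87-fold in the fit that removes the GC and length trend. HK1, PFKL, PFKM and ALDOA stood lower in both fits. Among genes within 2 percentage points of GC content, HK1 stood at percentile 12.3, PFKL at 41.6, PFKM at 14.6 and ALDOA at 30.7. For many of the abundant glycolytic enzymes the direction turned on how transcript GC content was handled. As fitted, 19 of 36 genes were higher and 15 lower (39.3% and 46.9% of all genes tested, 86.1% in either direction). This split also leaned on scaling: 55.9% of called members were higher with TMM and 45.2% with total counts alone, where the median of all genes was -0.89 in place of -0.28.

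Fold changes of siPIR libraries followed transcript GC content across all genes. The median log2 fold change ran from 2.39 over genes with at most 35% GC, through 0.06 between 45% and 50%, to -5.83 above 65%. The 36 genes span 36.4% (HIF1A) to 64.1% GC (PFKL), so each was set beside all tested genes within 2 percentage points of its GC content. A second fit removed the trend with GC content and length by an offset, which also removes any biological change that follows them. Differences between replicates that follow them are removed too. The offset was estimated from these same counts, library by library, and then treated as known, so SEs and p-values of that fit leave out its uncertainty. In that fit 27 of the 36 genes were higher and 5 lower, against 32.8% and 32.2% of the 16345 genes that could be fitted (65% in either direction). The medians were 1.19 over the 36 genes and -0.04 over all. Among genes of 60% to 65% GC, the range of PFKL, CA9 and ANGPTL4, a median of -0.52 remained after the offset.

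**Figure D3:**
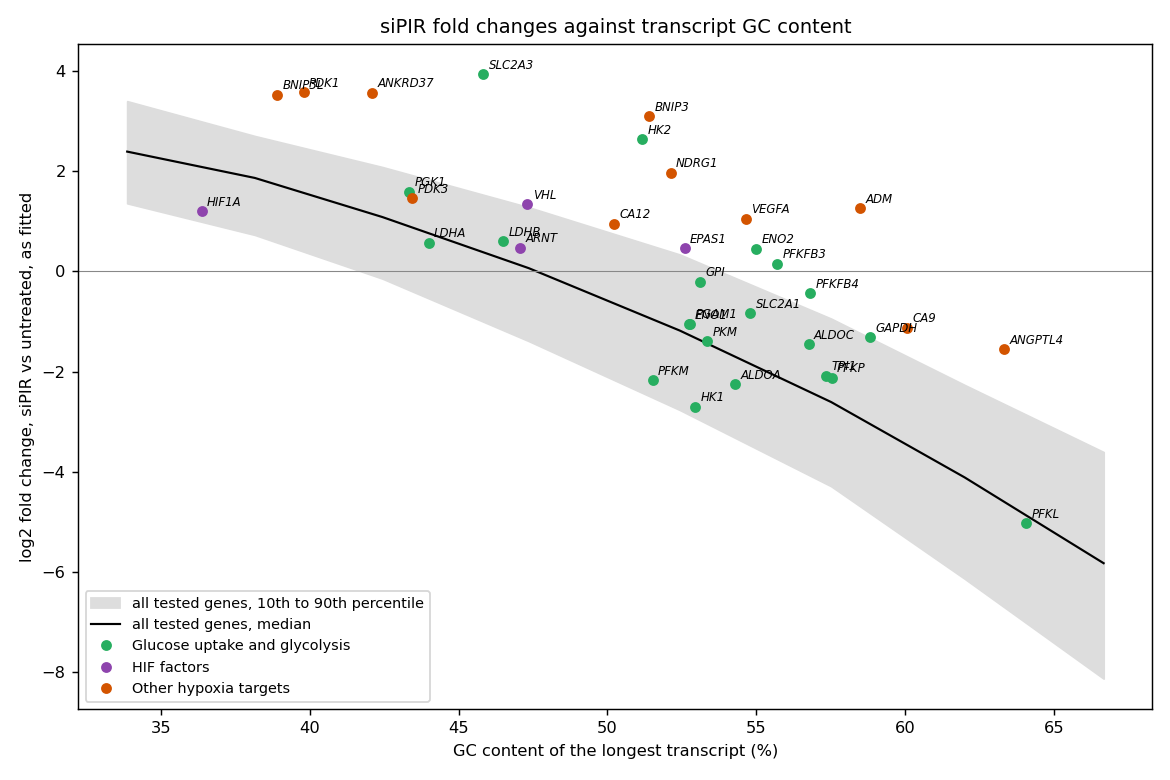
Log2 fold change of siPIR against untreated cells as fitted (vertical axis) by GC content of the longest transcript (horizontal axis, %). The line and band are the median and the 10th to 90th percentile of all tested genes, and points are the 36 genes by role. ADM, BNIP3, HK2, SLC2A3 and NDRG1 lie far above the band, HIF1A, LDHA and PKM lie within it.

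Of the 36 genes, 18 lay above the 90th percentile of genes of similar GC content and 0 below the 10th. Among them were 10 of the 11 hypoxia targets, 6 of the 21 glycolytic genes (SLC2A3, HK2, PFKFB3, PFKFB4, GAPDH and ENO2) and 2 of the 4 HIF factors (EPAS1 and VHL). CA12, at percentile 92.7, was the hypoxia target closest above that line, and PDK3, at 74.9, the one below it. Taken by single library, as log2(CPM + 0.5) minus the untreated mean, which moves the values of scarce genes toward 0, GAPDH stood at percentile 70.9 and 81.2 and ANGPTL4 at 75.6 and 89.3 in siPIR replicates 1 and 2. On that measure PFKFB4 (87.3) and CA9 (85.8) were below the 90th percentile in replicate 1 and above it in replicate 2, and the other 14 of the 18 genes were above it in both. At the other end, HK1 (5.34 in both libraries) and PFKM (6.05 and 6.86) were below the 10th percentile on that measure. With a window of 5 percentage points 14 of the 36 genes lay above the 90th percentile. GAPDH (86.1), CA12 (89.7) and both HIF factors, EPAS1 (89.6) and VHL (86.4), were then below it. By the 2 fits together, 17 genes were called higher in both, 4 lower in both, 8 lower as fitted and higher with the offset, and HIF1A the reverse, while 6 were called in only 1 fit. Values below are given as fitted and then with the offset.

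At glucose entry, the inducible forms rose and the housekeeping hexokinase fell in both fits. SLC2A3 had 373 and 377 CPM in siPIR cells, against 29.6 and 19.4 CPM in untreated cells (log2 fold change 3.93, SE 0.172, edgeR adjusted p = 1.7e-10, and 3.63 with the offset). HK2 had 431 and 478 CPM in siPIR cells, against 78.8 and 67.1 CPM in untreated cells (2.64, SE 0.117, edgeR adjusted p = 1.92e-10, and 3.36 with the offset). HK1 had 18.1 and 21.8 CPM in siPIR cells, against 135 and 125 CPM in untreated cells (-2.70, SE 0.118, edgeR adjusted p = 1.75e-10, and -1.49 with the offset). The 2 hexokinase transcripts have like GC contents, 51.2% for HK2 and 53.0% for HK1, yet HK2 stood at percentile 99.9 and HK1 at percentile 12.3 of genes of similar GC. SLC2A1 had 195 and 225 CPM in siPIR cells, against 418 and 332 CPM in untreated cells, lower as fitted (-0.84, edgeR adjusted p = 2.33e-05) and higher with the offset (0.89, edgeR adjusted p = 1.32e-08).

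PFKFB3, which encodes a kinase that raises fructose 2,6-bisphosphate, had 71.8 and 88.6 CPM in siPIR cells, against 73.1 and 71.4 CPM in untreated cells. It did not pass as fitted (0.15, edgeR adjusted p = 0.225) and was at 2.10 with the offset (edgeR adjusted p = 8.6e-16), at percentile 94.9 of genes of similar GC. As fitted it was called higher with RLE scaling (0.29, edgeR adjusted p = 0.0253), by DESeq2 (0.29, adjusted p = 0.0286) and without siPIR replicate 1 (0.31, edgeR adjusted p = 0.00256), and lower with total counts alone (-0.46, 0.00228). PFKFB4 was lower as fitted (-0.43, edgeR adjusted p = 0.0124) and higher with the offset (1.86, edgeR adjusted p = 4.54e-13). Its call as fitted was lost without siPIR replicate 1 (-0.22, edgeR adjusted p = 0.0942) and without untreated replicate 1 (-0.29, 0.157). PFKM had 32.2 and 38.7 CPM in siPIR cells, against 161 and 159 CPM in untreated cells (-2.17, SE 0.114, edgeR adjusted p = 7.7e-10, and -1.30 with the offset). PFKL had 3.92 and 5.73 CPM in siPIR cells, against 159 and 156 CPM in untreated cells (-5.03, SE 0.149, edgeR adjusted p = 1.64e-11, and -1.01 with the offset). Among genes of similar GC content PFKL stood at percentile 41.6, and at 31.3 with a window of 5 percentage points. By single library, on the measure that moves scarce genes toward 0, it stood at 12.1 and 15.0. PFKP was at -2.13 as fitted and 0.37 with the offset (edgeR adjusted p = 6.17e-09 and 0.000361). With the offset, PFKP was at 0.24 to 0.46 when any library was left out, lowest without siPIR replicate 2.

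The later enzymes gave no common direction. PGK1 had 1532 and 1754 CPM in siPIR cells, against 563 and 528 CPM in untreated cells (1.59, SE 0.106, edgeR adjusted p = 7.81e-09, and 0.77 with the offset). LDHB was higher in both fits (0.60 and 0.48), as was the neuronal enolase gene ENO2 (0.45 and 2.24), but with total counts alone they stood at -0.015 and -0.16 and did not pass. For ENO2, the call as fitted was also lost without untreated replicate 2 (0.32, edgeR adjusted p = 0.124), and the value was 0.24 without siPIR replicate 2. ALDOA, the main aldolase gene, had 134 and 234 CPM in siPIR cells, against 943 and 809 CPM in untreated cells (-2.25, SE 0.2, edgeR adjusted p = 1.6e-07). With the offset ALDOA was at -0.66 (edgeR adjusted p = 0.0325), which no longer passed without SP2509 replicate 2 (-0.67, 0.0539) or untreated replicate 1 (-0.57, 0.075) and was -0.38 without siPIR replicate 1. GAPDH was at -1.32 as fitted and 1.54 with the offset, TPI1 at -2.09 and 0.37, and ALDOC at -1.45 and 0.83, all past the threshold in both fits and in opposite directions. PGAM1, ENO1 and PKM were lower as fitted (-1.04, -1.05 and -1.40), LDHA higher (0.57, though -0.044 with total counts alone), and none of these 4 passed with the offset (0.16, 0.13, -0.06 and -0.06, edgeR adjusted p = 0.0574 to 0.569). With the offset, ENO1 passed without siPIR replicate 1 (0.30, edgeR adjusted p = 0.00102), PGAM1 without that library (0.21, 0.00916) or with a filter of 1 CPM in 2 libraries (0.19, 0.019), and PKM without siPIR replicate 2 (-0.19, 0.0309). GPI did not pass as fitted (-0.21, edgeR adjusted p = 0.242) and was higher with the offset (1.03, 0.000483). As fitted it was called lower without siPIR replicate 2 (-0.53, edgeR adjusted p = 5.82e-05), with upper-quartile scaling (-0.38, 0.0467), with total counts alone (-0.82, 0.000219) and with no count filter (-0.29, 0.0207). Of the 21 glycolytic genes, 6 were higher and 13 lower as fitted, and 13 higher and 4 lower with the offset.

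Replicate 1 of siPIR was higher than replicate 2 in 6 of the 36 genes, with a median log2 ratio of -0.26, while over all genes 48.4% were higher and the median was 0. GPI had 278 and 427 CPM and ALDOA 134 and 234 CPM in the 2 libraries. The siPIR replicates were the least alike of the 3 groups, with a chi-square per degree of freedom of 19.1, against 6.83 for SP2509 and 4.14 for untreated libraries.

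HIF1A (chr14:61695513-61748259, plus strand) had 414 and 332 CPM in siPIR cells, against 160 and 165 CPM in untreated cells (log2 fold change 1.2, SE 0.118, edgeR adjusted p = 4.87e-07). The HIF1A transcript has 36.4% GC, and genes of similar GC had a median of 1.99, which puts HIF1A at percentile 15.9. With the offset it was lower (-0.71, SE 0.0709, edgeR adjusted p = 8.1e-09). EPAS1 had 101 and 106 CPM in siPIR cells, against 73.4 and 76.2 CPM in untreated cells (0.47, SE 0.1, edgeR adjusted p = 0.000706, and 1.55 with the offset). VHL, the substrate receptor of the ligase that degrades both alpha subunits, had 206 and 160 CPM in siPIR cells, against 72.3 and 72.3 CPM in untreated cells (1.34, SE 0.119, edgeR adjusted p = 1.73e-07, and 1.35 with the offset). ARNT rose by 0.47 as fitted and 0.39 with the offset. With total counts alone EPAS1 and ARNT stood at -0.15 and -0.14 and did not pass.

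Of the 11 hypoxia targets, 9 were higher and 2 lower as fitted, and all 11 were higher with the offset. BNIP3, a receptor that marks mitochondria for autophagy, had 587 and 529 CPM in siPIR cells, against 67.3 and 62.7 CPM in untreated cells (log2 fold change 3.10, SE 0.109, edgeR adjusted p = 3.7e-11, and 3.96 with the offset). Its relative BNIP3L had 1358 and 1162 CPM in siPIR cells, against 109 and 109.5 CPM in untreated cells (3.53, SE 0.114, edgeR adjusted p = 2.26e-11, and 1.95 with the offset). PDK1, which shuts pyruvate out of the citric acid cycle, had 293 and 292 CPM in siPIR cells, against 26.2 and 22.8 CPM in untreated cells (3.58, SE 0.11, edgeR adjusted p = 1.87e-11, and 2.0 with the offset). ANKRD37, a small ankyrin repeat gene, had 104 and 123 CPM in siPIR cells, against 10.6 and 8.54 CPM in untreated cells (3.56, SE 0.133, edgeR adjusted p = 5.47e-11, and 2.55 with the offset). In each of these 4 genes both siPIR libraries lay above both untreated ones, and all 4 lay at or above percentile 99.2 of genes of similar GC.

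ADM is GC-rich, at 58.5%, where the median gene was at -2.92, yet it had 109 and 128 CPM in siPIR cells, against 53.7 and 45.4 CPM in untreated cells (log2 fold change 1.26, SE 0.114, edgeR adjusted p = 2.13e-07, and 4.04 with the offset). VEGFA had 125 and 113 CPM in siPIR cells, against 54.6 and 60.5 CPM in untreated cells (1.05, SE 0.103, edgeR adjusted p = 4.74e-07, and 2.61 with the offset). NDRG1 had 930 and 1187 CPM in siPIR cells, against 315 and 225 CPM in untreated cells (1.97, SE 0.164, edgeR adjusted p = 8.44e-08, and 2.98 with the offset). CA12 rose by 0.95 as fitted and 1.44 with the offset, and PDK3 by 1.46 and 0.67 (percentiles 92.7 and 74.9). The other 2 targets were lower as fitted and higher with the offset, and both rest on few counts or a wide spread. CA9 had 9 and 19 counts in siPIR libraries, against 66 and 43 counts in untreated libraries (-1.13, edgeR adjusted p = 0.00939, and 2.05 with the offset, edgeR adjusted p = 8.74e-05). As fitted, its call was lost without siPIR replicate 1 (-0.68, edgeR adjusted p = 0.107) or untreated replicate 1 (-0.90, 0.0895), and it stood at -1.74 without siPIR replicate 2. ANGPTL4 had 3.60 and 7.60 CPM in siPIR cells, against 20.6 and 12.1 CPM in untreated cells (-1.55, edgeR adjusted p = 0.000494, and 2.40 with the offset, edgeR adjusted p = 0.00784). Neither ANGPTL4 call held without siPIR replicate 1 (-1.10 as fitted and 2.60 with the offset, edgeR adjusted p = 0.22 and 0.0831) or siPIR replicate 2 (-2.17 and 1.85, 0.0908 and 0.227).

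Outside the 36 genes, 27 of 33 further hypoxia targets were higher with the offset and 0 lower, while 6 did not pass. The glycogen branching enzyme gene GBE1 stood at 2.64, the collagen prolyl hydroxylase gene P4HA1 at 2.65 and the MYC antagonist gene MXI1 at 1.89. As fitted, 21 of these 33 were higher and 9 lower. Of 14 regulators of HIF, 8 were higher and 4 lower as fitted, and 7 were higher and 2 lower with the offset, with EGLN3 at 3.78, SIAH2 at 3.34 and EGLN1, the main oxygen-sensing prolyl hydroxylase, at 2.05 above, and ARNT2 (-1.60) and RBX1 (-0.62) below. Of 26 further genes of glycolysis and pyruvate use, 11 were higher and 12 lower as fitted, and 6 were higher and 15 lower with the offset. Among all genes 39.3% were called higher and 46.9% lower as fitted, and 32.8% higher and 32.2% lower with the offset. SLC16A1 and SLC16A3 encode the lactate carriers MCT1 and MCT4, and stood at 1.10 and -1.08 with the offset. The pyruvate dehydrogenase subunit gene PDHA1 was at -0.82. Named values passed with edgeR adjusted p of 7.41e-07 or lower.

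**Figure D4:**
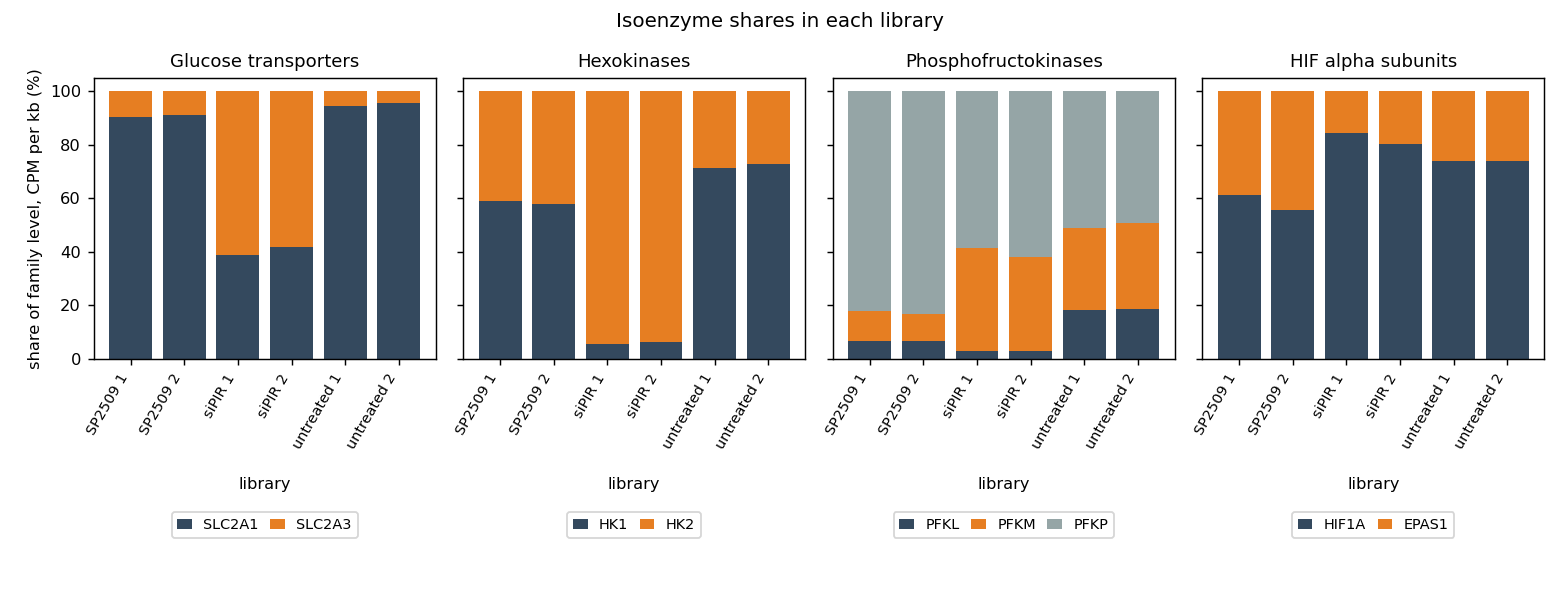
Share of each gene in the summed level of its family, in CPM per kb (vertical axis, %), for each library, SP2509 at the left, siPIR in the middle and untreated at the right. HK2 takes 41.1% and 42.1% of the hexokinase level in SP2509 cells, 94.3% and 93.8% in siPIR cells, and 28.7% and 27.1% in untreated cells.

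Isoenzyme shares show which form of each step the cells carried as RNA. They are shares of level per kb of transcript, given per library with no test, since 2 libraries against 2 cannot go below p = 0.333 in a two-sided exact permutation test. HK2 took 41.1% and 42.1% of the hexokinase level in SP2509 cells and 94.3% and 93.8% in siPIR cells, against 28.7% and 27.1% in untreated cells. SLC2A3 took 9.73% and 8.80% of the level of both transporters in SP2509 cells and 61.3% and 58.3% in siPIR cells, against 5.55% and 4.62% in untreated cells. GLUT3 transcripts outweighed GLUT1 transcripts in the siPIR libraries and not in the other 4, and the GC contents of the pair, 45.8% for SLC2A3 and 54.8% for SLC2A1, differ. PFKP took 82.1% and 83.1% of the phosphofructokinase level in SP2509 cells and 58.8% and 61.8% in siPIR cells, against 51.2% and 49.3% in untreated cells. These values carry no correction for GC content; with the offset PFKP was at 0.37, PFKM at -1.30 and PFKL at -1.01 in siPIR against untreated cells. EPAS1 took 38.7% and 44.6% of the level of both alpha subunits in SP2509 cells and 15.7% and 19.6% in siPIR cells, against 26.0% and 26.2% in untreated cells. The lower EPAS1 share in siPIR cells turned with the offset, where EPAS1 (52.6% GC) was at 1.55 and HIF1A (36.4% GC) at -0.71. LDHA took 44.2% and 45.8% of the LDH level in SP2509 cells and 41.2% and 43.4% in siPIR cells, against 43.8% and 42% in untreated cells, so that all 6 libraries lay within 41.2% to 45.8%.

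The 2 comparisons share the untreated libraries, so their values are set side by side and the difference was tested as siPIR against SP2509. With the offset, 26 of the 36 genes were higher in siPIR than in SP2509 cells and 5 lower (32.6% and 37% of all genes, 69.6% in either direction). As fitted, 17 were higher and 16 lower (38.8% and 45.5%, 84.3% in either direction). The widest gaps with the offset were in hypoxia targets. With the offset ADM was at 4.04 in siPIR cells and -0.19 in SP2509 cells, each against untreated cells, and the difference was 4.23 (SE 0.0919, edgeR adjusted p = 8.72e-20). BNIP3 differed by 4.06 (SE 0.091, edgeR adjusted p = 8.74e-20) and CA12, higher in siPIR and lower in SP2509 cells, by 3.58 (SE 0.151, edgeR adjusted p = 2.68e-15). PGK1 likewise rose in siPIR cells and fell in SP2509 cells, and differed by 1.86 with the offset (SE 0.0865, edgeR adjusted p = 1.28e-14). PFKP went the other way, lower in siPIR than in SP2509 cells with the offset (-0.87, SE 0.0815, edgeR adjusted p = 2.41e-09). As fitted, PFKL and PFKM were also lower in siPIR than in SP2509 cells (-3.91 and -0.95, edgeR adjusted p = 5.0e-11 and 3.25e-06). Both genes, lower than untreated in each group, did not pass between siPIR and SP2509 with the offset (-0.13 with SE 0.118 and -0.16 with SE 0.0853, edgeR adjusted p = 0.323 and 0.0991). PFKM passed without SP2509 replicate 2 (-0.25, edgeR adjusted p = 0.0433), and both did without siPIR replicate 2 (-0.38 and -0.26, 0.0393 and 0.0139).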

How the data were processed

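RNA was sequenced from 6 libraries in 3 groups of 2, assigned by sample title. The authors deposited estimated counts per Ensembl gene for 60675 genes, 9.32% to 12% of them not whole in a library; FastQC 0.11.8, Trimmomatic 0.32, HISAT2, featureCounts, Subread 1.6.2, edgeR 3.26.4 and GRCh38 are named per the submitters' processing notes. The libraries were directional, per the labels' protocols. The annotation release, strand setting and rule for shared reads are not given in the sources.

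Counts were rounded, filtered by filterByExpr and TMM-scaled, and all libraries were fitted as 3 groups with edgeR 4.0.16 (robust quasi-likelihood test, R 4.3.3), with Benjamini-Hochberg adjustment over all genes tested and a threshold of 0.05. The SE of a log2 fold change was taken from the F statistic. One estimate of the spread per gene is shared, with 3 residual degrees of freedom. GC content, length and coordinates are from GENCODE 29 (GRCh38), longest transcript; 158 tested genes had no GC value. The offset is each library's departure from the average library, fitted on GC content and log2 length by natural splines with 5 degrees of freedom each. A count of 0 allows up to 3 counts, 0.104 to 0.133 unscaled CPM, for counting error only.

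The 36 genes, the lists and the offset were chosen with earlier results of these data known. Up to 4 members per direction and role were described in full, and up to 3 genes per direction of each further list; 1 of these is not reported here. Of 89 entries of those lists, 87 matched a row. Promoters are from RefSeq (GRCh38.p14). Alternatives were other scalings, DESeq2 1.42.0, limma-voom (limma 3.58.1), other filters, a fit of the 4 libraries compared, blocks, and leaving out each library.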

Additional observations from a re-analysis of the deposited data

How the results depend on the processing

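With 3 residual degrees of freedom, small changes are called or lost with single libraries. The 10 higher and 15 lower members of SP2509 against untreated cells became 9 and 26 with total counts alone. That scaling turned HK1 to -0.26 in SP2509 cells. In siPIR cells it turned ARNT to -0.14, ENO2 to -0.16, EPAS1 to -0.15, LDHA to -0.044, LDHB to -0.015 and PFKFB3 to -0.46; the scaling itself moves all genes down. No other member changed direction in a call under any alternative run. Counts of called members in the 3 comparisons as fitted and the 2 with the offset otherwise stayed within 1.5 times. With a window of 5 points 14 members lay above the 90th percentile of similar GC, in place of 18. Deviations of same-numbered replicates correlated at -0.053 between SP2509 and untreated, -0.078 between siPIR and untreated and 0.146 between siPIR and SP2509, so the numbers were not taken to pair libraries. A replicate block left the 10 higher and 15 lower members in SP2509 cells and the 19 higher and 15 lower in siPIR cells, each against untreated, as they were. With the offset and the block 26 were higher in siPIR cells in place of 27, ANGPTL4 being lost (2.40, edgeR adjusted p = 0.0508), and ARNT was lost between siPIR and SP2509 as fitted (edgeR adjusted p = 0.0518). The sample descriptions carry another number that the labels do not explain, 11 and 12 in the SP2509 and untreated replicates and 10 and 11 in the siPIR replicates. With it as a block, LDHA, BNIP3, BNIP3L and ANKRD37 were called lower in SP2509 against untreated cells (-0.18, -0.20, -0.18 and -0.29, edgeR adjusted p = 0.0183 to 0.0307). In siPIR against untreated cells as fitted, PFKFB3 was gained (0.25, 0.0339) and PFKFB4 (-0.29, 0.0539) and ANGPTL4 (-1.16, 0.169) were lost. Between siPIR and SP2509, GPI was gained (0.41, 0.000692) and ALDOC, ARNT and NDRG1 were lost (-0.11, -0.14 and 0.60, edgeR adjusted p = 0.172 to 0.402).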
